A study of Cardamine hirsuta with 24 samples.

Results

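The comparison described here sets the shoot apices of *Cardamine hirsuta* seedlings harvested 8 h after induction of ChCUC1 (8 h Dex, 3 libraries) against those harvested 4 h after induction (4 h Dex, 3 libraries). These 6 libraries were taken by their labels from the 24 of the series, and 21689 of the 29458 genes in the count files passed a filter on low counts and were compared. All seedlings, Mock included, were of the Oxford genotype and carried *RCOp::LhG4:GR* together with *Op6::ChCUC1:V*. An activator made from the *RCO* promoter, which acts at the margin of developing leaves, switches on a ChCUC1:Venus fusion once dexamethasone (Dex) is given. The seedlings were 12 days old and were kept in 10 µM Dex or, for Mock, in 0.1% DMSO, with 3 libraries for each of 4 times and a pool of 20 seedlings for each library, from which roots, cotyledons and mature leaves had been removed. The replicates are described as independent without saying what was separate, so p-values measure the spread between these pools. Mock libraries at 8 h and 4 h, 3 each, share no library with the Dex comparison and are given beside it. No source used here gives the time of day at harvest, so hours of treatment and time of day cannot be told apart within Dex.

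CUP-SHAPED COTYLEDON (CUC) proteins are NAC transcription factors that mark organ boundaries, and in *C. hirsuta* leaves CUC1 acts at the margin where leaflets arise. Shoot apices also hold young green leaves, and in plants the genes for light-harvesting antenna proteins, for chlorophyll synthesis and for many photoreceptors and enzymes cycle over the day under the circadian clock and light.

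Gene counts were 18.3 M to 19.9 M at 8 h Dex and 12.9 M to 19.9 M at 4 h Dex. Markers of the shoot apex were present in all 6 libraries, with *KNAT1*, a homeobox gene of the meristem, at 19.7, 19.9 and 19.9 CPM (counts relative to the total of the library) at 8 h Dex and 16.4, 26.9 and 25.3 CPM at 4 h Dex. *ANT*, an AP2 factor of growing primordia, had 23.2, 15.5 and 19.9 CPM at 8 h Dex and 26.2, 20.6 and 23.5 CPM at 4 h Dex. Replicate 1 of 4 h Dex stood apart, with a root mean square log2 difference of 0.812 and 0.796 to replicates 2 and 3, which differed by 0.381 from each other. At 8 h Dex the same measure was 0.692 between replicates 1 and 2 and 0.370 between replicates 1 and 3. Of 13 root hair genes tested, 12 were highest in replicate 1 of 4 h Dex, and their summed level was 8.74 to 10.8 CPM at 8 h Dex and 3.86 to 28.3 CPM at 4 h Dex, with none at 0 in all libraries of a time. In the same library 22 of 26 heat shock genes and 6 of 7 hypoxia genes were at their lowest. At 8 h Dex replicate 1 was also the lowest, with mean log2 CPM of 5.17, 6.92 and 6.11 for hypoxia. For heat shock these were 2.79, 3.72 and 3.22. Deviations from the group means correlated at 0.601 between the replicate 1 libraries of 8 h and 4 h Dex. *PDC1*, a hypoxia gene, had 9.05, 22.9 and 14.4 CPM at 2 h Dex and 5.07, 402 and 124 CPM at 6 h Dex. The main fit had no replicate term, and the cause was not tested. Some values that move with replicate 1 of 4 h Dex are given with and without it.

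**Figure D1:**
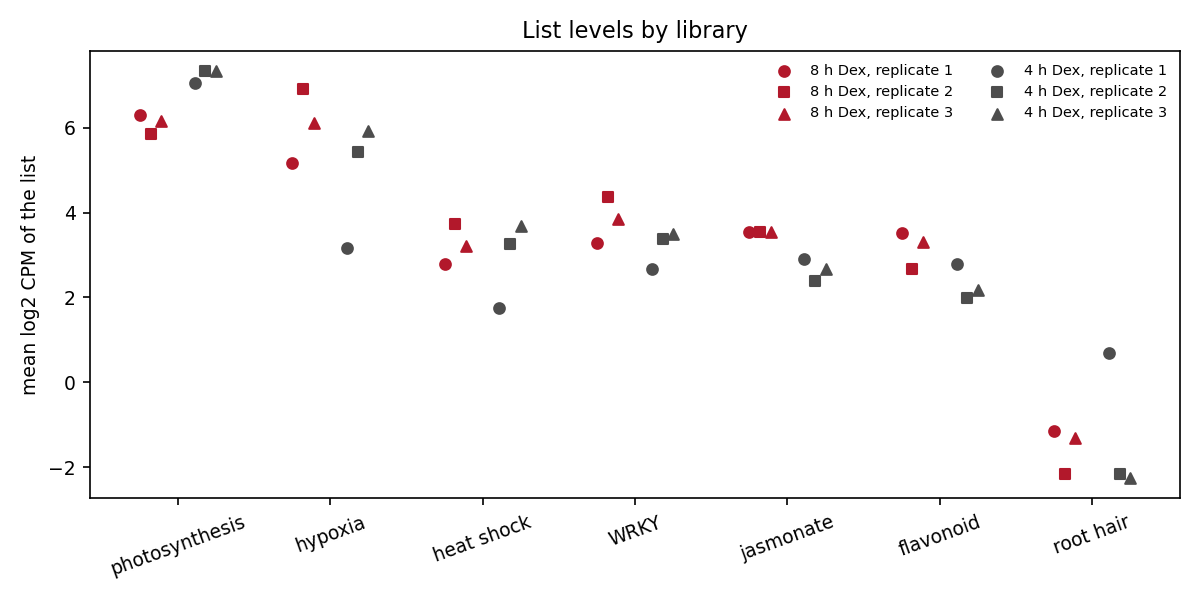
Mean log2 CPM (y axis) of 7 gene lists (x axis) in each library, 8 h Dex in red left of 4 h Dex in grey, with a marker shape for each replicate. Replicate 1 of 4 h Dex is low for hypoxia (3.16) and heat shock (1.76) and high for root hair (0.69), while the 3 photosynthesis means at 8 h Dex lie between 5.85 and 6.30, all below those at 4 h Dex (7.04 to 7.33).

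More genes were called lower than higher at 8 h Dex. A gene was called changed at an adjusted p under 0.05 (edgeR quasi-likelihood test) with a fold over 1.5. By this rule 402 genes fell (1.85% of those tested) and 78 rose (0.360%), which is 2.21% in either direction. Over all genes tested the directions were closer, with 52.7% above 0, all libraries at 8 h above those at 4 h in 9.32% and below them in 11.8%. All 480 called genes had groups that did not overlap, against 21.1% of all genes tested. Calls and overlap come from the same libraries, so this is not separate support for the calls. The median log2 change was 0.02 over all genes tested, 1.04 over the genes that rose and -1.05 over those that fell. A change over 4-fold was seen in 50 of the genes that fell and 13 of those that rose. Without replicate 1 of 4 h Dex 660 genes were called (152 rose, 508 fell), and 407 of the 480 were among them. The count was 271 without replicate 2 of 4 h Dex, 235 without replicate 3 of 4 h Dex, 285 without replicate 2 of 8 h Dex and 248 without replicate 3 of 8 h Dex. With only the 6 libraries of both times in the fit it was 192 (28 rose, 164 fell), and without replicate 1 of every group 1040 (341 rose, 699 fell).

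Only part of these genes has a name. The study's tables pair 15 of the genes that rose and 67 of those that fell with an *Arabidopsis thaliana* gene, and 7 and 22 of them with a symbol. Functions given here are those known in *A. thaliana*. Of 43 named genes with a call, 27 were called without each of the 6 libraries in turn and 16 lost the call at least once. With only the 6 libraries of both times in the fit, 23 of the 43 kept the call and 19 lost it. Those that lost it there, though they held without each single library, are *GLK2*, *PORB*, *STN7*, *PSAG*, *PSBO2*, *TRXF1*, *TRXF2*, *TPT* and *TMK1*. None of the 43 changed direction in these fits.

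Antenna proteins of the photosystems, which bind chlorophyll and pass light energy to the reaction centres, included the 2 named genes with the largest falls. *LHCB2.1*, which encodes a major antenna protein of photosystem II, had 94.4, 35.2 and 70.4 CPM at 8 h Dex and 1270, 1320 and 1290 CPM at 4 h Dex. The highest library at 8 h was thus far below the lowest at 4 h, and the change was -4.28 on the log2 scale (SE 0.341, adjusted p = 2.4e-07), or 19.4-fold lower. *LHCB2.4*, a close relative, had 17.5, 8.74 and 14.1 CPM at 8 h Dex and 199, 250 and 248 CPM at 4 h Dex, a log2 change of -4.11 (SE 0.284, adjusted p = 7.43e-08). Members of the LHCB2 family are near-identical, and how reads were divided between them is uncertain. *LHCB4.2*, a minor antenna protein of photosystem II, had 159, 96.5 and 133 CPM at 8 h Dex and 630, 785 and 755 CPM at 4 h Dex, with a log2 change of -2.48 (adjusted p = 2.4e-07). *LHCB6*, another minor antenna protein, had 644, 536 and 624 CPM at 8 h Dex and 1390, 2130 and 2080 CPM at 4 h Dex, with a log2 change of -1.64 (adjusted p = 0.000166). The groups did not overlap for any of the 4. In bulk tissue, fewer cells of a type and less RNA per cell cannot be told apart.

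Not every antenna gene passed the test. *CAB1*, of the LHCB1 family, had 5450, 9950 and 6570 CPM at 8 h Dex and 7300, 15200 and 16800 CPM at 4 h Dex. Its groups overlapped, and the log2 change of -0.84 had an adjusted p of 0.15. Without replicate 1 of 4 h Dex the change was -1.14 (adjusted p = 0.0208).

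Among genes that make or regulate the photosynthetic apparatus, *PORA*, *PORB* and *GLK2* fell. *PORA* and *PORB* encode protochlorophyllide oxidoreductases of chlorophyll synthesis. *PORB* had 276, 163 and 232 CPM at 8 h Dex and 517, 495 and 584 CPM at 4 h Dex, with a log2 change of -1.25 (adjusted p = 0.00452). *PORA* had 2.0, 1.23 and 1.69 CPM at 8 h Dex and 4.67, 4.81 and 5.47 CPM at 4 h Dex, a log2 change of -1.60 (adjusted p = 0.000307). *GLK2*, a transcription factor that activates antenna and chlorophyll genes, had 26.1, 12.7 and 18.7 CPM at 8 h Dex and 44.0, 59.2 and 54.3 CPM at 4 h Dex, a log2 change of -1.45 (adjusted p = 0.001). Its paralog *GLK1* had 70.5, 44.6 and 65.7 CPM at 8 h Dex and 66.6, 89.3 and 89.6 CPM at 4 h Dex. The groups overlapped for *GLK1*, whose log2 change of -0.44 did not pass the test (adjusted p = 0.58).

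Subunits and regulators in the thylakoid also included genes that fell. *PSAD-2*, of photosystem I, changed by -1.27 on the log2 scale (adjusted p = 0.00213). *STN7*, the kinase that phosphorylates antenna proteins and thereby shifts energy between the photosystems, had 20.7, 22.1 and 20.4 CPM at 8 h Dex and 32.9, 55.0 and 48.3 CPM at 4 h Dex, with a log2 change of -1.11 (adjusted p = 0.00277). *PSBS*, which is needed to dissipate excess light energy, had 304, 206 and 260 CPM at 8 h Dex and 483, 417 and 416 CPM at 4 h Dex, with a log2 change of -0.77 (adjusted p = 0.0158) that lost the call in 2 of 6 fits without 1 library (adjusted p up to 0.109). *PGR5*, of cyclic electron flow, was at the edge of both limits with -0.56 (adjusted p = 0.0502), and *GUN4*, of chlorophyll synthesis, changed by -0.77 (adjusted p = 0.119). Without replicate 1 of 4 h Dex *PGR5* was called (log2 change -0.64, adjusted p = 0.0352). Over the whole photosynthesis list, 10 of 19 members tested fell and 0 rose in Dex, beside 1.85% and 0.360% of all genes. In Mock 13 of the 19 fell and 0 rose, beside 4.17% and 0.941% of all genes, with a list median of -1.15. The median of the list in Dex was -0.84, beside 0.02 for all genes. It was -1.14 without replicate 1 of 4 h Dex and -0.80 to -1.07 without any other library of the comparison. A log2 change above 0 was seen in 4 of the 19, none of them called. They include *FD1*, a leaf ferredoxin, with 114, 80.7 and 101 CPM at 8 h Dex and 51.4, 68.9 and 71.6 CPM at 4 h Dex (log2 change 0.62, adjusted p = 0.111). The count was 12 without replicate 1 of 4 h Dex, 9 to 11 without any other library of the comparison, and 6 with only the 6 libraries of both times in the fit. Among the 10 members whose names come from tables of ChCUC1 binding, 6 fell.

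**Figure D2:**
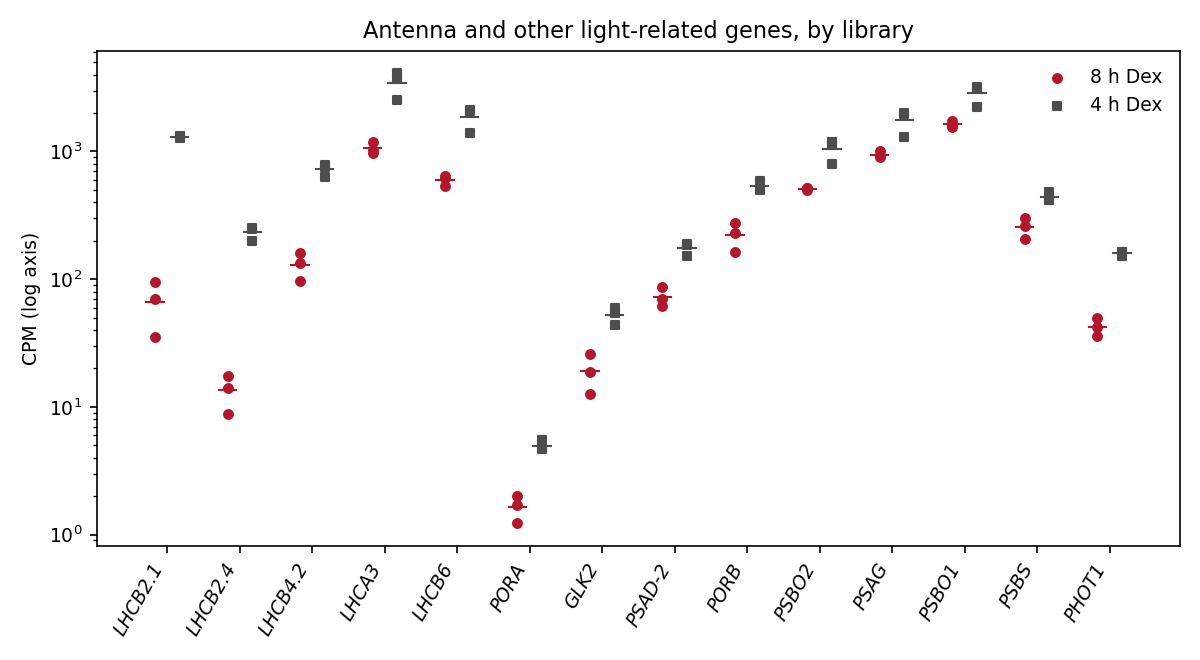
CPM (y axis, log scale) of 14 antenna and other light-related genes (x axis) in each of the 3 libraries at 8 h Dex (red circles, left) and 4 h Dex (grey squares, right), with bars at the means. For each gene all libraries at 8 h Dex lie below all those at 4 h Dex, and the widest gap is that of LHCB2.1.

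Further chloroplast genes were paired with an *A. thaliana* locus but no symbol in the study's tables. They were picked after their values had been seen, from loci whose *A. thaliana* names are well known. *LHCA3*, an antenna protein of photosystem I, had 966, 1180 and 1030 CPM at 8 h Dex and 2520, 3680 and 4100 CPM at 4 h Dex, with a log2 change of -1.70 (adjusted p = 3.36e-05). *PSBO1* and *PSBO2*, both of the oxygen-evolving complex, changed by -0.81 and -1.02 (adjusted p = 0.00925 and 0.00111). *PSAG* of photosystem I changed by -0.90 (adjusted p = 0.00456), and *ATPC1*, a subunit of the chloroplast ATP synthase, by -0.62 (adjusted p = 0.018). *TRXF1* and *TRXF2*, thioredoxins that activate Calvin cycle enzymes in the light, changed by -1.05 and -1.10 (adjusted p = 0.00299 and 0.000705). *TPT*, which exports triose phosphates from the chloroplast, had 380, 339 and 386 CPM at 8 h Dex and 573, 621 and 609 CPM at 4 h Dex, a log2 change of -0.71 (adjusted p = 0.00618). *PSBO1* and *ATPC1* lost the call in 3 and 4 of the 6 fits that left out a library.

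Light perception was represented by *PHOT1*, a blue light receptor of phototropism. It had 49.5, 35.8 and 42.3 CPM at 8 h Dex and 163, 151 and 164 CPM at 4 h Dex, so that libraries of each time were close together and the times far apart. The log2 change was -1.91 (SE 0.164, adjusted p = 6.37e-07). *GIL1*, of gravitropism under light, had 41.1, 32.0 and 38.7 CPM at 8 h Dex and 70.3, 62.0 and 72.8 CPM at 4 h Dex, but missed the threshold (log2 change -0.88, adjusted p = 0.0579). Picked after its values had been seen, *SPA1*, a repressor of light signalling, changed by -0.62 (adjusted p = 0.0426) and lost its call in 5 of 6 fits. *CDF5*, a DOF factor that delays flowering, had 2.43, 2.4 and 1.64 CPM at 8 h Dex and 6.05, 7.88 and 7.02 CPM at 4 h Dex. Its log2 change was -1.69 (adjusted p = 0.000144). *SHB1*, which acts in seedling light responses, had 5.37, 9.86 and 6.24 CPM at 8 h Dex and 2.15, 1.89 and 2.99 CPM at 4 h Dex. Its groups did not overlap, but it missed the threshold (SE 0.553 on the log2 scale, adjusted p = 0.161). Of 4 light signalling genes tested, 1 fell and 0 rose, beside 1.85% and 0.360% of all genes.

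Enzymes and transport proteins were among the remaining falls. *ASN1*, an asparagine synthetase that is induced in darkness and by low sugar, had 4.99, 11.4 and 6.61 CPM at 8 h Dex and 43.0, 58.4 and 83.0 CPM at 4 h Dex. Its log2 change of -3.00 had a wide error (SE 0.784, adjusted p = 0.0475), and the call was lost in 5 of the 6 fits without 1 library (adjusted p up to 0.191). *BXL1*, a cell wall xylosidase, had 51.3, 47.0 and 51.0 CPM at 8 h Dex and 203, 198 and 259 CPM at 4 h Dex, with a log2 change of -2.15 (adjusted p = 0.00252). *NCED4*, a carotenoid cleavage enzyme, had 29.7, 17.3 and 23.1 CPM at 8 h Dex and 64.7, 96.4 and 98.5 CPM at 4 h Dex, a log2 change of -1.89 (adjusted p = 0.00368). The groups did not overlap for these 3 genes. *AGT1*, of photorespiration, changed by -0.96 (adjusted p = 0.0205), with 314, 322 and 311 CPM at 8 h Dex and 393, 732 and 720 CPM at 4 h Dex, and lost the call in 4 of 6 fits (adjusted p up to 0.124). As the only called member, *ASN1* gives the counts of the sugar and starch list (1 of 26 fell, 0 rose) and of the nitrogen list (1 of 16 fell, 0 rose). These counts stand beside 1.85% of all genes that fell and 0.360% that rose.

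The genes that fell include 3 aquaporins, channels that carry water across membranes. The plasma membrane gene *ATPIP1* had 3.19, 3.84 and 4.56 CPM at 8 h Dex and 13.5, 16.4 and 13.1 CPM at 4 h Dex, a log2 change of -1.89 (adjusted p = 0.0109). *PIP2B*, also of the plasma membrane, had 19.1, 20.2 and 21.2 CPM at 8 h Dex and 47.2, 58.8 and 57.6 CPM at 4 h Dex, a log2 change of -1.44 (adjusted p = 0.0371). *TIP1;2*, of the vacuole, had 535, 435 and 479 CPM at 8 h Dex and 965, 943 and 1040 CPM at 4 h Dex, a log2 change of -1.02 (adjusted p = 0.0449). Their groups did not overlap, although *ATPIP1* lost the call in 1, *PIP2B* in 5 and *TIP1;2* in 6 of the 6 fits without 1 library (adjusted p up to 0.0554, 0.13 and 0.183). *PIP2B* and *TIP1;2* were named after their values had been seen.

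Auxin genes gave few calls. *GH3.5*, which conjugates auxin to amino acids, had 4.09, 2.51 and 3.74 CPM at 8 h Dex and 8.61, 6.62 and 10.3 CPM at 4 h Dex, a log2 change of -1.30 (adjusted p = 0.0111). *ABCB19*, an auxin exporter, had 63.9, 56.5 and 60.8 CPM at 8 h Dex and 97.4, 98.3 and 92.7 CPM at 4 h Dex, a log2 change of -0.67 (adjusted p = 0.0107). *TMK1*, a receptor-like kinase of auxin signalling, had 61.3, 60.5 and 61.9 CPM at 8 h Dex and 106, 98.4 and 90.3 CPM at 4 h Dex, a log2 change of -0.68 (adjusted p = 0.00277). *GH3.5* lost the call in 2 and *ABCB19* in 1 of the 6 fits without 1 library (adjusted p up to 0.0792 and 0.0626). Among genes that missed the threshold, the auxin-induced repressors *IAA1* and *IAA4* had log2 changes of -1.40 and -0.87 (adjusted p = 0.0526 and 0.0838) and the auxin exporter *PIN4* -0.84 (adjusted p = 0.114). Without replicate 1 of 4 h Dex *IAA1* was called (log2 change -1.59, adjusted p = 0.036). In all, 1 of 16 auxin response genes, 1 of 16 auxin transport genes and 0 of 9 auxin metabolism genes fell, and 0 rose. Of all genes tested 1.85% fell and 0.360% rose. Without replicate 1 of 4 h Dex 2 auxin response genes fell, and 0 were called without replicate 3 of 4 h Dex or replicate 2 of 8 h Dex. *ANAC038*, a NAC factor, had under 0.5 CPM in every library, with 0.0951, 0.0533 and 0.0911 CPM at 8 h Dex and 0.412, 0.394 and 0.345 CPM at 4 h Dex. Its log2 change of -2.16 (adjusted p = 0.0483) rests on few reads, and the call was lost in 6 of 6 fits without 1 library.

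Genes that rose included clock and flavonoid genes. *BOA*, a MYB-like factor that activates a morning clock gene in *A. thaliana*, had 12.0, 10.7 and 13.4 CPM at 8 h Dex and 4.9, 5.04 and 4.2 CPM at 4 h Dex, a log2 change of 1.35 (SE 0.227, adjusted p = 0.00163). *RVE2*, a MYB-like factor related to the morning clock proteins, had 81.5, 69.7 and 80.0 CPM at 8 h Dex and 24.2, 26.9 and 27.6 CPM at 4 h Dex. Its groups lay far apart, with a log2 change of 1.55 (SE 0.354, adjusted p = 0.0201), but the call was lost in 5 of 6 fits without 1 library (adjusted p up to 0.0852). Of 5 clock genes tested 2 rose, beside 0.360% of all genes, or only *BOA* where *RVE2* lost its call. The other 3, *COR27*, *RVE1* and *COR28*, had log2 changes of 0.51, 0.43 and 0.42 with adjusted p-values of 0.351, 0.791 and 0.793. In Mock 1 of the 5 rose and 0 fell, beside 0.941% and 4.17% of all genes. The list median was 0.51 in Dex and 0.35 in Mock. Most clock genes written on the list, 24 of 29, have no pair among the names and were not assessed.

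In flavonoid synthesis, *TT6*, which encodes flavanone 3-hydroxylase, had 41.6, 37.2 and 38.6 CPM at 8 h Dex and between 14.0 and 21.9 CPM at 4 h Dex, a log2 change of 1.13 (SE 0.175, adjusted p = 0.000743). *TT8*, a bHLH factor that activates late flavonoid genes, had 6.66, 2.56 and 6.2 CPM at 8 h Dex and 1.47, 2.21 and 2.01 CPM at 4 h Dex. Replicate 2 at 8 h lay close to the 4 h libraries, and the log2 change of 1.45 (adjusted p = 0.0187) lost its call in 4 of 6 fits without 1 library. *UGT78D2*, a flavonoid glucosyltransferase, had 13.5, 9.38 and 12.0 CPM at 8 h Dex and 5.45, 7.25 and 5.47 CPM at 4 h Dex and missed the threshold (log2 change 0.94, adjusted p = 0.0553). *LDOX*, of anthocyanin synthesis, had overlapping groups (log2 change 1.17, adjusted p = 0.279). Of 13 flavonoid genes tested, 2 rose and 0 fell, beside 0.360% and 1.85% of all genes. A log2 change above 0 was found for 12, beside 52.7% of all genes. The list median was 1.01 in Dex, with 1.30 without replicate 1 and 0.77 without replicate 3 of 4 h Dex. In Mock it was 0.45, and 1 of the 13 rose and 0 fell, beside 0.941% and 4.17% of all genes. None of the 5 members with names from binding tables was called in Dex, with a median of 0.73. In 4 of the 6 fits without 1 library only 1 of the 13 was called, namely *TT6*, since *TT8* lost its call there.

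Other named genes that rose belong to separate processes. *FAD4*, a chloroplast desaturase that acts on phosphatidylglycerol, had 6.47, 5.22 and 5.92 CPM at 8 h Dex and 1.56, 1.81 and 1.04 CPM at 4 h Dex, a log2 change of 2.00 (SE 0.252, adjusted p = 6.99e-05) and the largest rise among called genes with a symbol. *PDLP1*, a plasmodesmata-located protein, had 7.56, 14.8 and 10.3 CPM at 8 h Dex and 4.08, 5.36 and 4.89 CPM at 4 h Dex, a log2 change of 1.19 (adjusted p = 0.0299). *ATNEK5*, a NIMA-related kinase, had 27.4, 52.0 and 35.6 CPM at 8 h Dex and 14.0, 16.4 and 19.6 CPM at 4 h Dex, a log2 change of 1.20 (adjusted p = 0.0188). Replicate 2 was the highest at 8 h for both, and they lost the call in 5 and 3 of the 6 fits without 1 library. With groups that did not overlap but an adjusted p above 0.05, *GA2OX7*, which inactivates gibberellin, had a log2 change of 2.13 (adjusted p = 0.0538). The same held for *DIOX1*, an alpha-dioxygenase of oxylipin synthesis, with 2.69 (adjusted p = 0.0594). It also held for *AGP12*, an arabinogalactan peptide, with 1.00 (adjusted p = 0.0607), and for *PFK7*, a phosphofructokinase of glycolysis, with 0.99 (adjusted p = 0.0695). *GA2OX7* and *DIOX1* rest on few reads at 4 h Dex, with 0.733, 0.551 and 0.115 CPM and with 0.183, 0.0788 and 0.288 CPM. Without replicate 1 of 4 h Dex *GA2OX7* was called (log2 change 2.71, adjusted p = 0.0421).

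Among genes with no symbol, some fell by as much as the LHCB2 genes or more, while the largest rises were smaller on the log2 scale. CARHR176150, which is paired with AT5G45820 and was chosen after its values had been seen, was at 0 counts in all 3 libraries at 8 h Dex and had 1.05, 0.788 and 0.748 CPM at 4 h Dex (adjusted p = 0.000168). Against a floor of 3 counts over the 3 libraries, or 0.0486 CPM, it was at least 17.8-fold lower at 8 h Dex, and it was the only called gene at 0 in all of them. CARHR149160 had 1.47, 0.746 and 1.46 CPM at 8 h Dex and 28.5, 26.3 and 30.1 CPM at 4 h Dex, a log2 change of -4.51 (adjusted p = 1.96e-07). CARHR149130 had 6.28, 3.25 and 3.6 CPM at 8 h Dex and 102, 86.0 and 96.1 CPM at 4 h Dex, a log2 change of -4.43 (adjusted p = 4.89e-09). The identifier of *LHCB2.4*, CARHR149150, lies between theirs in number, and how reads were divided between these genes was not tested. In the other direction, CARHR096660 had 11.9, 9.81 and 11.4 CPM at 8 h Dex and 0.916, 1.42 and 0.979 CPM at 4 h Dex, a log2 change of 3.34 (adjusted p = 5.16e-05). CARHR096650 had 30.4, 29.2 and 29.0 CPM at 8 h Dex and 3.12, 2.76 and 2.94 CPM at 4 h Dex, a log2 change of 3.32 (adjusted p = 8.37e-06). For the last 4 genes the groups lay far apart, although replicate 2 at 8 h Dex was the lowest for both that fell, and each call held without any 1 of the 6 libraries.

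The 2 h and 6 h libraries of Dex, which entered the fit only through the shared spread and scaling, place these changes in time. The mean at 6 h Dex lay between those at 4 h and 8 h for 78 of the 78 genes that rose and for 401 of the 402 that fell. These genes were chosen by their distance between 4 h and 8 h, which favours a 6 h mean in between. No share over all genes tested was taken for this count or for the 2 h counts below, so no conclusion is drawn from them. Of the genes that fell, 277 had a mean at 2 h Dex above that at 4 h Dex, so that for them 4 h was already below 2 h. *LHCB2.1* averaged 3063 ± 374 CPM at 2 h, 1293 ± 22.7 at 4 h, 370 ± 128 at 6 h and 66.7 ± 29.7 at 8 h (SD, n = 3 each). *PHOT1* differed less between 2 h and 4 h than between later times, with 175 ± 21.5 CPM at 2 h, 160 ± 7.48 at 4 h, 85.9 ± 11.5 at 6 h and 42.5 ± 6.83 at 8 h. Of the genes that rose, 50 had a mean at 2 h Dex below that at 4 h Dex. *BOA* was one of them, with 2.27 ± 0.884 CPM at 2 h, 4.72 ± 0.45 at 4 h, 9.93 ± 1.95 at 6 h and 12.0 ± 1.34 at 8 h. *FAD4* was not, since its lowest mean was at 4 h (1.47 ± 0.395 CPM).

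**Figure D3:**
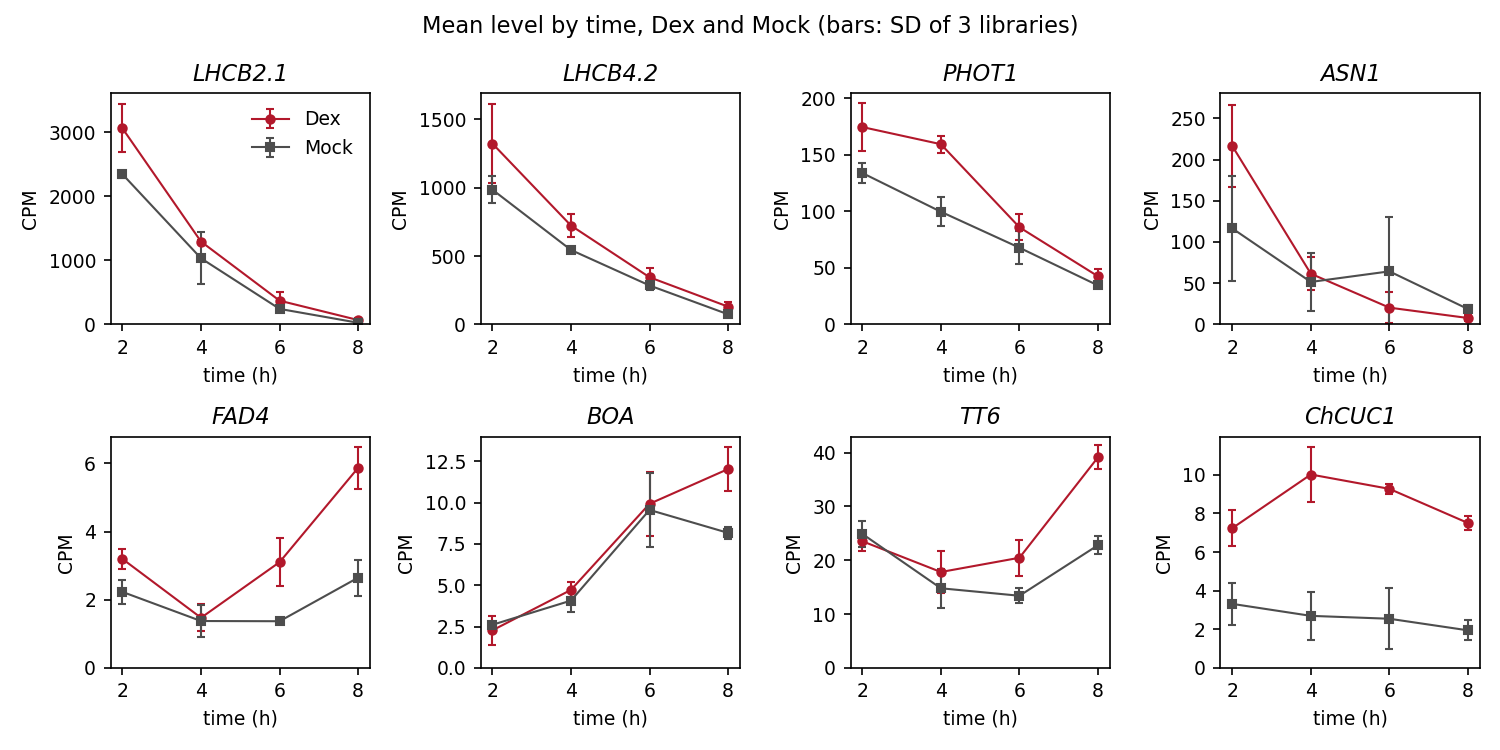
Mean CPM (y axis) of 8 genes at 2, 4, 6 and 8 h (x axis) in Dex (red circles) and Mock (grey squares), with bars for the SD of 3 libraries. LHCB2.1, LHCB4.2 and PHOT1 are lower at each later time in both treatments, while ChCUC1 stays above Mock in Dex at all 4 times.

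Seedlings in Mock, without induction, answer whether a change over these hours also occurs when the activator is not released. They changed in the same direction for nearly all genes called in Dex, as 77 of the 78 that rose and 399 of the 402 that fell had the same sign in Mock, beside 68.6% of all genes tested. In Mock 904 genes fell (4.17%) and 204 rose (0.941%), which is 5.11% in either direction. The Mock count of 1108 was 545 without replicate 3 of 4 h Mock and 492, 483 and 449 without replicate 1, 2 or 3 of 8 h Mock. Of the genes that fell in Dex 320 also fell in Mock, which is 79.6% of those in Dex and 35.4% of those in Mock. Of the genes that rose in Dex 36 also rose in Mock, which is 46.2% of those in Dex, and 0 genes were called in opposite directions. Over the genes that fell in Dex the median log2 change was -1.05 in Dex and -1.01 in Mock, and over those that rose 1.04 in Dex and 0.69 in Mock. The change was larger in Mock for 208 of the 480. Since the 480 were chosen by their change in Dex, these medians and this count lean towards a larger change in Dex.

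Single genes show the same. *LHCB2.1* had 26.3, 24.5 and 23.0 CPM at 8 h Mock and 714, 894 and 1490 CPM at 4 h Mock, a log2 change of -5.39 (adjusted p = 2.07e-08). *PHOT1* had 36.2, 31.7 and 35.4 CPM at 8 h Mock and 85.2, 110 and 104 CPM at 4 h Mock, a log2 change of -1.53 (adjusted p = 6.48e-06). *BOA* had 8.13, 8.55 and 7.82 CPM at 8 h Mock and 4.49, 3.25 and 4.47 CPM at 4 h Mock, a log2 change of 1.01 (adjusted p = 0.0126). *RVE2* had 59.9, 58.3 and 62.0 CPM at 8 h Mock and 81.2, 23.5 and 36.4 CPM at 4 h Mock, where the groups overlapped and replicate 1 at 4 h was the highest (log2 change 0.35, adjusted p = 0.605). The 4 h Mock libraries also differed among themselves, by 0.649 to 0.909 in root mean square log2 difference, beside 0.289 to 0.327 at 8 h Mock.

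The difference between the change in Dex and the change in Mock was tested directly, and 0 genes were called (edgeR quasi-likelihood test, smallest adjusted p 0.986). At an unadjusted p under 0.05 there were 658 genes (3.03%), less than the share of 0.05 that would pass if no gene differed. DESeq2 also called 0 genes. The single p-values below are therefore a ranking only. A p that misses the threshold does not show that the changes are equal. Among genes with a symbol the smallest unadjusted p-values for a change more positive in Dex were those of *PORA* (0.00412), *FD1* (0.00438), *WRKY62* (0.00661) and *CYP78A5* (0.00689). *PORA* fell in both treatments, by -1.60 on the log2 scale in Dex and -2.67 in Mock. *CYP78A5*, which promotes organ growth from the boundary of the meristem, had 4.04, 4.64 and 4.88 CPM at 8 h Dex against 4.95, 6.15 and 6.85 CPM at 4 h Dex, and 2.74, 2.16 and 2.52 CPM at 8 h Mock against 6.43, 6.36 and 8.93 CPM at 4 h Mock. *FD1* had a log2 change of 0.62 in Dex and -0.27 in Mock. For a change more negative in Dex the genes with a symbol and the smallest unadjusted p-values were *ATHB8*, *AHL19*, *FUT6* and *GRP9*. *GRP9* had 13.1, 16.5 and 12.6 CPM at 8 h Dex against 32.9, 36.6 and 33.2 CPM at 4 h Dex. In Mock it had 44, 46.7 and 41.9 CPM at 8 h against 83.8, 43.3 and 23.8 CPM at 4 h.

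**Figure D4:**
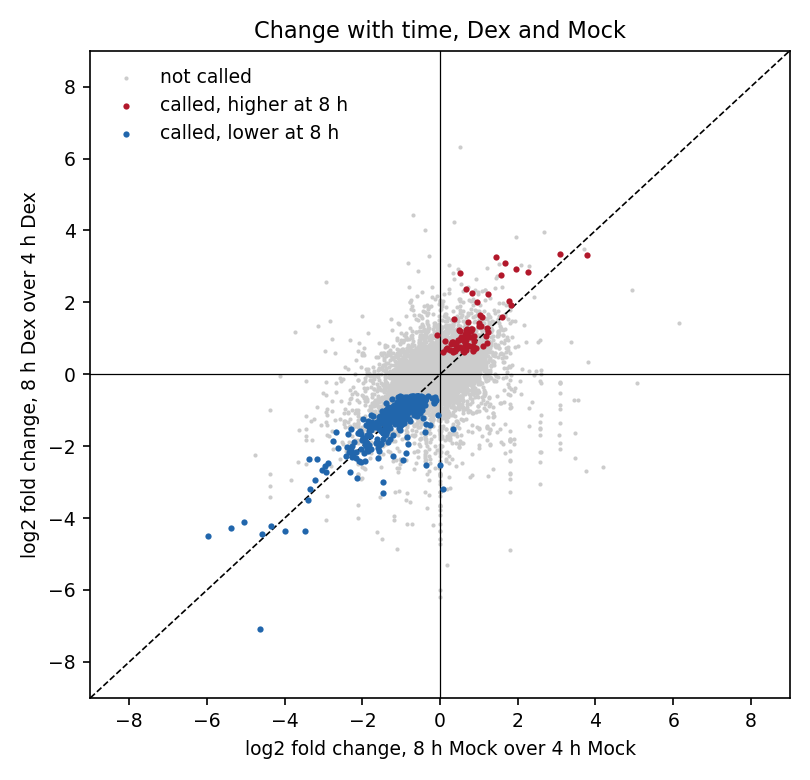
Log2 fold change of 8 h over 4 h in Dex (y axis) and in Mock (x axis), 1 point for each of 21689 genes, with genes called in Dex in red (78 that rose) and blue (402 that fell) and a dashed line of equal change. The blue points lie along the dashed line in the lower left, with 399 of 402 below 0 in Mock as well.

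*ChCUC1* itself did not pass the test between the times. It had 7.85, 7.52 and 7.15 CPM at 8 h Dex and 9.67, 11.6 and 8.81 CPM at 4 h Dex, and although the groups did not overlap the log2 change was -0.41 (SE 0.364, adjusted p = 0.674). Transcripts of the transgene and of the native gene cannot be told apart in these counts. In Mock *ChCUC1* had 1.53, 2.52 and 1.78 CPM at 8 h and 1.25, 3.5 and 3.33 CPM at 4 h. *WAG1* and *WAG2*, kinases that phosphorylate PIN auxin exporters, had overlapping groups. *WAG1* had 4.04, 1.71 and 2.64 CPM at 8 h Dex and 4.44, 1.89 and 1.67 CPM at 4 h Dex (log2 change 0.05, adjusted p = 0.984). *WAG2* had 6.85, 1.07 and 4.47 CPM at 8 h Dex and 5.96, 1.42 and 1.55 CPM at 4 h Dex (log2 change 0.44, adjusted p = 0.858), and the direction of both depends on which library is left out. The genes bound by ChCUC1 were taken from published binding tables. Of the 422 given, 234 were tested. Among these 0 rose and 7 fell (2.99%) in Dex, beside 1.85% and 0.360% of all genes that fell and rose, with a median log2 change of -0.09. In Mock 1 of the 234 rose and 11 fell, beside 0.941% and 4.17% of all genes, with a median of -0.08. Those that fell in Dex include *PHOT1*, *PORA*, *TMK1* and *STN7*. Without 1 library 4 to 8 fell, with 4 without replicate 2 of 8 h Dex and with 8 and 1 that rose without replicate 1 of 4 h Dex, and 2 fell with only the 6 libraries of both times in the fit. A further list holds target genes that had been picked with the help of these same libraries. Of its 28 members 0 were called, beside 2.21% of all genes tested, with *CAD-5*, of lignin synthesis, closest to the threshold (log2 change 0.60, adjusted p = 0.0965). The median was 0.38, and it was 0.12 without replicate 2 of 8 h Dex, 0.24 without replicate 1 of 4 h Dex and 0.59 without replicate 1 of 8 h Dex.

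Of 17 jasmonate genes, which act in wounding and defence, 0 were called, beside 2.21% of all genes tested. A log2 change above 0 was seen in 15 of the 17, beside 52.7% of all genes. In 10 of the 17 all libraries at 8 h Dex lay above all those at 4 h Dex, beside 9.32% of all genes tested, and the mean log2 CPM of the list was 3.54, 3.53 and 3.54 at 8 h Dex and 2.91, 2.39 and 2.66 at 4 h Dex. *MYC2*, the main transcription factor of the pathway, had 87.9, 70.8 and 81.5 CPM at 8 h Dex and 66.2, 54.0 and 52.4 CPM at 4 h Dex (log2 change 0.48, adjusted p = 0.165). *CYP94B1*, which inactivates the hormone, had 9.89, 10.2 and 8.84 CPM at 8 h Dex and 4.86, 0.709 and 1.96 CPM at 4 h Dex (log2 change 1.88, adjusted p = 0.126). *JRG21*, an oxygenase induced by jasmonate, had 4.8, 13.8 and 7.65 CPM at 8 h Dex and 2.93, 2.05 and 2.99 CPM at 4 h Dex (log2 change 1.70, adjusted p = 0.196). The list median was 0.76 in Dex and 0 in Mock, and the difference in these medians was not tested. The stress lists below also had a higher median in Dex than in Mock. In Mock the mean log2 CPM of the jasmonate list was 3.99, 3.3 and 3.67 at 8 h and 3.83, 2.75 and 3.16 at 4 h. In Dex the list median was 0.43 without replicate 2 of 4 h Dex, 0.49 without replicate 3 of 4 h Dex and 0.53 without replicate 2 of 8 h Dex. Without replicate 1 of 4 h Dex 2 of the 17 were called, both higher, among them *CYP94B1* (log2 change 2.79, adjusted p = 0.0383).

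Among stress lists, 0 of 26 WRKY, 0 of 22 defence, 0 of 26 heat shock and 0 of 7 hypoxia genes were called, beside 2.21% of all genes tested. Their median log2 changes were 0.66, 0.23, 0.26 and 0.84 in Dex and 0.01, -0.2, -0.97 and 0.44 in Mock. The differences between these medians were not tested. Without replicate 1 of 4 h Dex the medians of the WRKY, heat shock and hypoxia lists were 0.37, -0.05 and 0.43, and without replicate 2 of 8 h Dex 0.19, 0.04 and 0.29. *PDC1*, a pyruvate decarboxylase of fermentation, had 60.9, 358 and 166 CPM at 8 h Dex and 3.85, 33.6 and 99.2 CPM at 4 h Dex, which shows the spread between libraries of a time (adjusted p = 0.374). For root hair genes the median was -1.71 with all libraries and 1.61 without replicate 1 of 4 h Dex, with 0 of 13 called in either case.

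With all libraries 0 genes were called among the growth lists, beside 2.21% of all genes tested. These are 14 boundary and meristem, 16 cytokinin, 10 gibberellin, 10 brassinosteroid, 24 DNA replication and 21 xyloglucan and expansin genes tested, of which 1 cytokinin gene was called without replicate 1 of 4 h Dex, with medians of -0.22, 0, 0.61, -0.12, -0.19 and -0.54. Without replicate 1 of 4 h Dex the xyloglucan and expansin median was 0.04 and the cytokinin median 0.56, and 1 xyloglucan or expansin gene fell with only the 6 libraries of both times in the fit. The cytokinin median ran from -0.27 to 0.15 without any other library. *EXP8*, an expansin that loosens cell walls, had 9.13, 4.32 and 6.79 CPM at 8 h Dex and 26.4, 24.9 and 21.9 CPM at 4 h Dex, and missed the threshold with a log2 change of -1.85 (adjusted p = 0.0567). *GASA4*, a peptide induced by gibberellin, had 82.7, 40.8 and 58.1 CPM at 8 h Dex and 163, 103 and 102 CPM at 4 h Dex (log2 change -1.02, adjusted p = 0.0615). *XTH9*, a xyloglucan enzyme of growing walls, had 86.7, 79.3 and 80.5 CPM at 8 h Dex and 97.6, 148 and 148 CPM at 4 h Dex (log2 change -0.68, adjusted p = 0.149). The groups did not overlap for these 3 genes. Marker genes of other tissues showed no call, with 0 of 7 for seed, 0 of 6 for epidermis and trichome and 0 of 5 for vascular tissue, where *IRX12*, of lignin synthesis, was closest (log2 change -0.64, adjusted p = 0.0877).

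**Figure D5:**
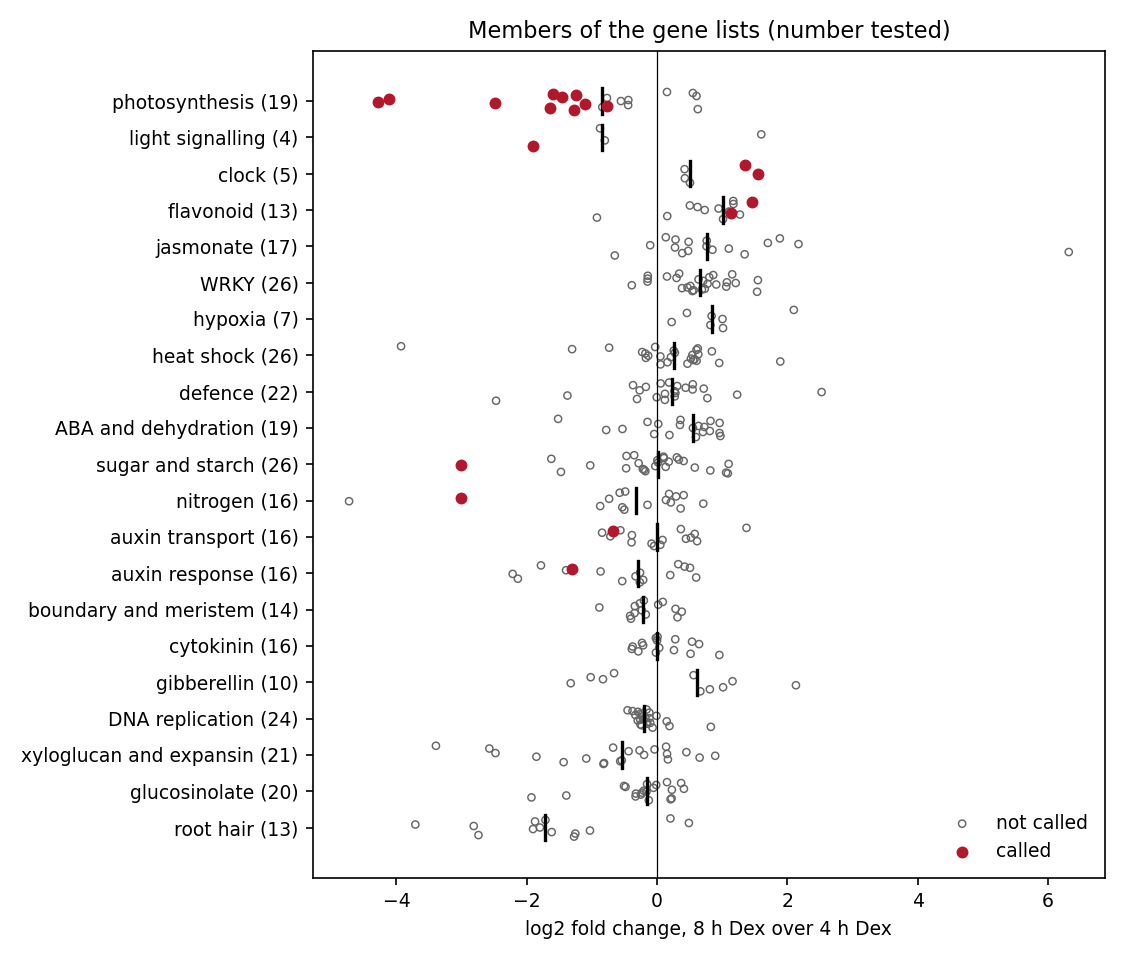
Log2 fold change of 8 h over 4 h Dex (x axis) for each member tested of 21 gene lists (y axis, number tested in brackets), with called genes filled in red and a bar at each list's median. In the photosynthesis list 10 of 19 members are called, all left of 0, while the 2 called clock and 2 called flavonoid genes lie right of 0.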

How the data were processed

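Poly(A) RNA of shoot apices was sequenced by the authors with a directional kit. Per the labels, reads were aligned with STAR 2.4.2a and counted per gene with HTSeq 0.5.4p1, and the deposited files hold these raw counts. DESeq was used by the authors, with no version given. Genome build, annotation and strand option: not given in the sources used here. Genes overlapping on opposite strands may therefore share reads. Each file lists 29458 genes and 5 summary rows, which were left out. Reads in no gene were 11.5% to 12.1% of the reads listed at 8 h Dex and 8.21% to 11.0% at 4 h Dex.

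All 24 libraries entered 1 fit of edgeR 4.0.16 under R 4.3.3 (TMM scaling, filterByExpr with a minimum count of 10, glmQLFit robust, glmQLFTest, two-sided, 1 coefficient for each of 8 groups). P-values were adjusted by Benjamini-Hochberg over the 21689 genes tested. Library sizes for CPM were scaled by TMM, with a prior count of 2 on the log2 scale. Fold limit and threshold follow the study. The script was tested on simulated data with known changes. Alternatives were RLE scaling, other filters, DESeq2 1.42.0, fewer libraries, replicate blocks and leaving out each library.

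Gene names come from 4021 pairs of identifiers in the study's tables, so that 3518 genes tested (16.2%) have one. There are 1846 pairs found only in tables of differentially expressed genes made from these libraries, so named genes are not independent evidence of a change, and the reference table matched 0 identifiers. No coordinates or sequences are given. The members and lists (34 lists, 465 of 648 entries with a pair) were chosen with earlier results of these data known. Genes named are *ChCUC1*, *WAG1* and *WAG2*, the largest called changes with a symbol in each direction (up to 12, filled by p-value), up to 4 members of a list with the smallest p, up to 4 genes in each direction with the smallest p for the difference from Mock, and up to 2 unpaired identifiers in each direction. Others are named as picked later, among them *COR28*, *GUN4*, *PGR5*, *CAB1*, *GLK1*, *PORB*, *AGT1*, *PSAD-2* and *PSBS*.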

Additional observations from a re-analysis of the deposited data

Results flagged for a closer look

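*ATHB8*, a homeobox gene of the vascular precursor cells, had groups that did not overlap in either treatment, lower at 8 h in Dex and higher at 8 h in Mock. It had 18.6, 16.9 and 19.5 CPM at 8 h Dex against 22.1, 25.7 and 19.6 CPM at 4 h Dex, and 19.3, 22.7 and 18.9 CPM at 8 h Mock against 13.4, 17 and 10.6 CPM at 4 h Mock. Neither change passed the test (log2 change -0.29, adjusted p = 0.599 in Dex and 0.57, adjusted p = 0.129 in Mock), and the nearest Dex libraries, 19.5 and 19.6 CPM, were almost level. The change in Dex minus that in Mock was -0.86 on the log2 scale (unadjusted p = 0.0101 in edgeR's quasi-likelihood test), and no gene passed the adjusted threshold for this difference. Of all genes tested, 34 (0.157%) had groups apart in opposite directions in Dex and Mock, while 1976 had them apart in the same direction.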

How the results depend on the processing

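The number of genes called between 8 h and 4 h Dex was 480, and it stayed within 1.5 times of that with RLE scaling, other filters, only the 12 Dex libraries, the replicate number as a block in all 24 libraries, no fold limit and the added fit of the 6 libraries without replicate 1 of 4 h Dex (678, chosen after seeing the data). It was 746 with DESeq2 and 192 with only the 6 libraries compared. Without 1 library it ran from 235 to 660, and it was 1040 without replicate 1 of every group. Between 8 h and 4 h Mock the count was 1108, 290 with only the 6 libraries compared, 449 to 1554 without 1 library, and 1804 without replicate 1 of every group. The count for the difference between Dex and Mock was 0 in every setting run. The causes were not tested.

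The replicate numbers do not mark a shared batch in the labels. Deviations of same-numbered libraries at 8 h and 4 h Dex correlated at 0.601, 0.466 and -0.096, and not every library correlated best with its own number. With the number as a block the count of calls in Dex was 494 over all 24 libraries, 935 with a block within each treatment and 1351 with only the 6 libraries, while in Mock the block gave 1731 within each treatment and 100 with only the 6 libraries.

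Leaving out 1 library turned the log2 change of *WAG1* (0.05), which ran from -0.35 to 0.65, with -0.14 without replicate 2 and -0.20 without replicate 3 of 4 h Dex, and that of *WAG2* (0.44), which ran from -0.17 to 1.46. Of 1424 values of 84 named genes under alternatives, 1195 kept direction and side of the threshold, 103 lost the call, 122 gained one and 4 reversed. With 3 libraries a time and counts down to 12.9 M, genes under about 0.5 CPM rest on few reads.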
